A study of Drosophila melanogaster with 4 samples.

Results

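The small RNAs described here are those that survived periodate oxidation and β-elimination in fly heads, compared between 3 and 30 days of age. The treatment keeps RNAs whose last ribose has free hydroxyls out of the library and spares those with a 2′-O-methylated 3′ end. How completely it did so in either library was not tested. Every distinct read sequence with at least 50 reads in the 2 oxidized libraries together was a member. This gave 870 sequences of the 5550 in the series, and they held 99.81% of the oxidized reads at 3 days and 99.86% at 30 days. Of the 870, 760 belonged to a named miRNA arm (the mature product of 1 side of a hairpin), 108 to an unnamed arm and 2 to no arm. The 6 sequences just inside the limit, at 50 reads, had medians of 10 reads at 3 days and 40 at 30 days, and the 6 just outside, at 49 reads, had 6.5 and 42.5.

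Heads came from male flies labelled wild type, genotype 5905, raised at 25 °C and collected whole before ageing. There were 4 libraries, 1 for each pairing of age with treatment, so every difference below compares single libraries and has no replicate check. Ages follow the titles and descriptions. The separate age label says 30 days for the 3-day oxidized library and 3 days for the 30-day library without oxidation. By that label both oxidized libraries would be 30 days old and both others 3 days old. Each age comparison, and not only its direction, therefore rests on the titles. The totals were 2091252 reads at 3 days and 12105527 at 30 days with oxidation, against 16112748 and 17345816 without. Age, the RNA preparation, the oxidation reaction and the library cannot be told apart. In head RNA, fewer cells of a type and less RNA per cell cannot be told apart either. Marker miRNAs of 3 tissues were summed in RPM (reads per 1000000 reads of the library). All 5 brain markers were found and summed to 37897 RPM at 3 days and 16526 at 30 days with oxidation, and to 165876 and 112152 without. miR-276a-3p and miR-957-3p make up most of these sums. Without oxidation the other 3 stood at 1073 and 1070 RPM (miR-124-3p), 5183 and 5074 (miR-9a-5p) and 3901 and 4765 (miR-1000-5p). The muscle marker miR-1-3p stood at 26.8 to 48.2 RPM, and 8 of 11 testis markers were found, at 3.40 to 11.0 RPM in sum. The brain markers miR-276a-3p, miR-957-3p and miR-9a-5p are also members described below. The part of these markers in the results was not tested.

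In flies, a miRNA duplex is loaded mainly into Argonaute1, while some strands, often the less abundant arm of a hairpin, enter Argonaute2. The methyltransferase Hen1 modifies the 3′ end of RNAs bound by Argonaute2. The exonuclease Nibbler trims the 3′ ends of some miRNAs bound by Argonaute1, miR-34-5p being the best known. The first bases of a miRNA, above all the seed at bases 2 to 8, select its targets, and isoforms that differ only at the 3′ end keep the same seed.

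The sequences below were chosen because the age difference is seen within single arms: each pair is a longer and a shorter form of 1 arm that start at the same base, or a member at an end of the range of age ratios. They are written 5′ to 3′ as in the deposited tables, in DNA letters, and the capitals mark the seed, bases 2 to 8. The longer and shorter forms of an arm differ only in their last bases. The pairs miR-276a-3p and miR-276b-3p, and miR-9a-5p and miR-9c-5p, share a seed.
miR-316-5p, 21 nt: tGTCTTTTtccgcttactggc
miR-316-5p, 19 nt: tGTCTTTTtccgcttactg
miR-981-3p, 22 nt: tTCGTTGTcgacgaaacctgca
miR-981-3p, 19 nt: tTCGTTGTcgacgaaacct
miR-133-3p, 22 nt: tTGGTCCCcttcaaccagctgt
miR-133-3p, 21 nt: tTGGTCCCcttcaaccagctg
miR-276a-3p, 22 nt: tAGGAACTtcataccgtgctct
miR-276a-3p, 20 nt: tAGGAACTtcataccgtgct
miR-276b-3p, 22 nt: tAGGAACTtaataccgtgctct
miR-276b-3p, 20 nt: tAGGAACTtaataccgtgct
miR-957-3p, 22 nt: tGAAACCGtccaaaactgaggc
miR-957-3p, 19 nt: tGAAACCGtccaaaactga
miR-317-3p, 24 nt: tGAACACAgctggtggtatccagt
miR-317-3p, 21 nt: tGAACACAgctggtggtatcc
miR-9a-5p, 23 nt: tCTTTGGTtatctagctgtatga
miR-9a-5p, 20 nt: tCTTTGGTtatctagctgta
miR-9c-5p, 21 nt: tCTTTGGTattctagctgtag
bantam-3p, 23 nt: tGAGATCAttttgaaagctgatt
bantam-3p, 21 nt: tGAGATCAttttgaaagctga
let-7-5p, 21 nt: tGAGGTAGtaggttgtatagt
let-7-5p, 19 nt: tGAGGTAGtaggttgtata
miR-34-5p, 21 nt: tGGCAGTGtggttagctggtt
miR-34-5p, 18 nt: tGGCAGTGtggttagctg
miR-252-5p, 22 nt: cTAAGTACtagtgccgcaggag
miR-252-5p, 20 nt: cTAAGTACtagtgccgcagg
miR-263a-5p, 24 nt: aATGGCACtggaagaattcacggg
miR-263a-5p, 23 nt: aATGGCACtggaagaattcacgg
miR-125-5p, 22 nt: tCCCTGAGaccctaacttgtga
miR-125-5p, 21 nt: tCCCTGAGaccctaacttgtg
miR-998-5p, 22 nt: aCTGAATTctcgtgggtctgca
miR-285-5p, 23 nt: aCTGAGATcgattggtgcataga
miR-306-3p, 22 nt: gGGGGTCActctgtgcctgtgc
miR-306-3p, 18 nt: gGGGGTCActctgtgcct

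Across the oxidized pool, 1 arm took a larger part of the library with age. miR-263a-5p, the product of the bereft locus that is known for protecting sensory bristles, held 31.6% of the oxidized reads at 3 days and 50.5% at 30 days, against 0.855% and 1.53% without oxidation. Its hairpin lies at chr2L:11953410-11953503 on the minus strand of the BDGP6 build, in an exon of the long non-coding RNA CR43314. The 24-nt form stood at 272616 RPM at 3 days and 416951 at 30 days, and the 23-nt form at 42291 and 86080 RPM. The 23-nt form thus differed more than the 24-nt form, by 2.04-fold against 1.53-fold. Within the arm, the 24-nt share was 86.2% at 3 days and 82.6% at 30 days, and the 23-nt share 13.4% and 17.0%.

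Because RPM are shares of 1 library, the larger share of miR-263a-5p lowered the RPM of all other sequences. Leaving its reads out of both totals moved every age ratio up by 0.47 on the log2 scale. With the file totals, 153 of the 870 sequences (17.6%) had an RPM at 30 days at least 2 times that at 3 days, and 232 (26.7%) were at least 2-fold lower. Without miR-263a-5p in the totals, 224 (25.7%) were higher and 137 (15.7%) lower. The balance of gains and losses therefore depends on the scaling, and both values are given below where they matter. Fewer than 10 reads in the 3-day oxidized library were found for 122 members, and 23 of these had 0 reads there. For members at 0 the ratio is a lower bound computed against 3 counts in that library, 1.43 RPM. Such members needed at least 50 reads at 30 days to enter. All 23 are therefore among the 153 and the 224 higher sequences by the limit alone.

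The length profile of the pool depended on miR-263a-5p. Reads of 24 nt made up 28.2% of the oxidized library at 3 days and 42.0% at 30 days, and reads beginning with A made up 36.7% and 53.3%. Once miR-263a-5p was left out, 24-nt reads were 1.35% and 0.630%, and A-first reads 7.39% and 5.72%. In what remained, 22-nt reads were 37.8% at 3 days and 30.6% at 30 days, and 23-nt reads 15.5% and 12.4%. Reads of 21 nt were 24.5% and 27.2%, and reads of 20 nt or shorter 7.34% and 10.9%. Reads of 25 nt or longer, mostly the 25-nt and 26-nt forms of miR-284-5p, were 13.5% and 18.3%. C-first reads were 31.2% and 34.4%, G-first reads 9.33% and 13.1%, and T-first reads 52.1% and 46.7%. Without oxidation and without miR-263a-5p, reads of 20 nt or shorter were 9.60% and 22.5%, so the library with more short reads was the 30-day one in both treatments. The values without oxidation include miR-14-3p, whose main form is 20 nt and which stood at 59573 and 150981 RPM there. They therefore reflect the levels of arms as well as the forms within arms.

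**Figure D1:**
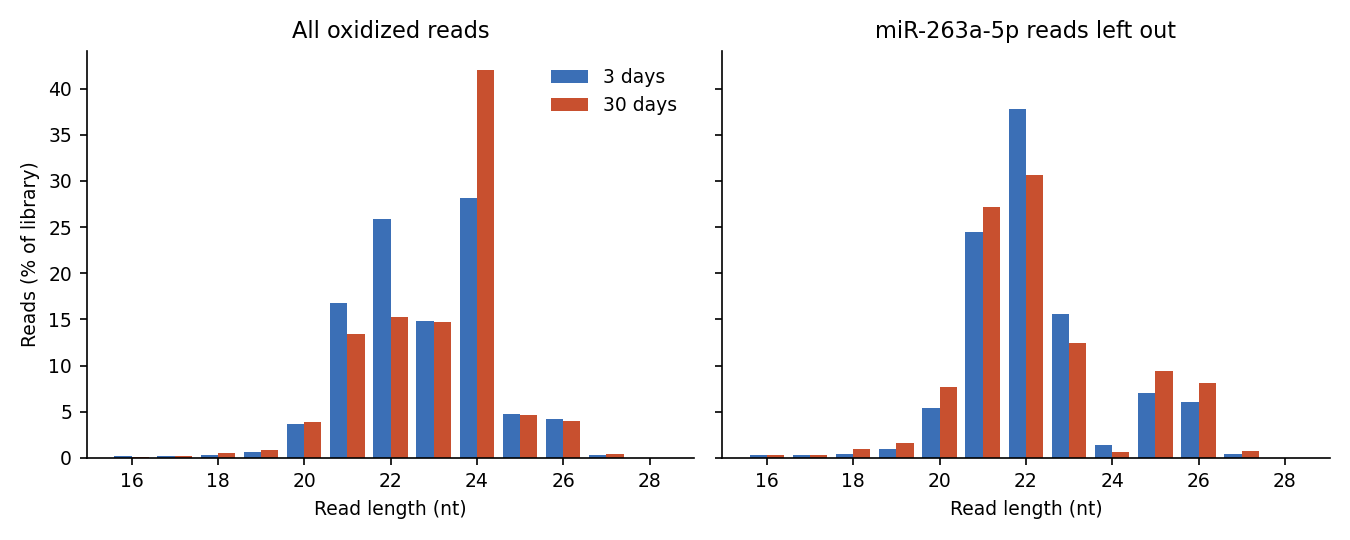
Share of reads by read length in the oxidized libraries at 3 days (blue) and 30 days (red), as a percentage of all reads (left) and of the reads left without miR-263a-5p (right). At 24 nt the share is 28.2% at 3 days and 42.0% at 30 days with miR-263a-5p in place, while without it 22-nt reads are 37.8% and 30.6%.

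At the level of whole arms, most differences were losses. Of 174 arms with at least 50 oxidized reads, 54 (31%) were at least 2-fold lower in the older flies and 6 (3.45%) at least 2-fold higher. These 6 had only 2 to 11 reads at 3 days and passed the limit of 50 through the deeper 30-day library. With miR-263a-5p out of the totals, 15 (8.67%) of 173 were higher and 32 (18.5%) lower. The 5 most abundant arms together held 57.4% of the oxidized reads at 3 days and 74.8% at 30 days. Among the 96 arms with a mean of at least 100 RPM, none was 2-fold higher by file totals and 26 were 2-fold lower. With miR-263a-5p left out, 2 were higher (miR-125-5p and miR-34-5p) and 14 lower.

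The highest age ratio in that group was that of miR-125-5p, a let-7 complex miRNA, at 3819 RPM and 6667 RPM, a log2 ratio of 0.80 with a 95% interval of 0.77 to 0.84. Without oxidation the same arm stood at 1204 and 1194 RPM. The other 5 of the 6 highest were miR-263a-5p at 0.67, miR-34-5p at 0.61, miR-276-5p at 0.48, miR-10-5p at 0.38 and miR-263b-5p at 0.38. miR-34-5p, a miRNA known for its part in brain ageing in flies, went from 936 to 1426 RPM with oxidation and from 2265 to 5912 RPM without. Once miR-263a-5p was left out of the totals, the other 5 had log2 ratios of 0.85 to 1.27.

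Among the same 96 arms the lowest age ratio was that of miR-998-5p, whose hairpin shares the E2f1 gene with miR-11. Across all 174 arms, 3 unnamed arms of lower level had lower ratios. miR-998-5p stood at 22114 RPM at 3 days, the 10th most abundant arm, and at 3826 RPM at 30 days, the 21st, a log2 ratio of -2.53 (95% interval -2.55 to -2.51). Without oxidation it stood at 380 and 240 RPM. Its opposite strand miR-998-3p was also among the 6 lowest, with 484 and 130 RPM and a log2 ratio of -1.90. The other 4 were miR-92b-3p at -2.21, miR-31a-5p at -2.18, miR-9c-5p at -2.14 and miR-8-5p at -1.97. All 6 remained at least 2-fold lower without miR-263a-5p in the totals, between -2.07 and -1.43. In the libraries without oxidation the same 6 arms ranged from -1.24 to 0.46, and miR-92b-3p and miR-8-5p were higher at 30 days there.

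**Figure D2:**
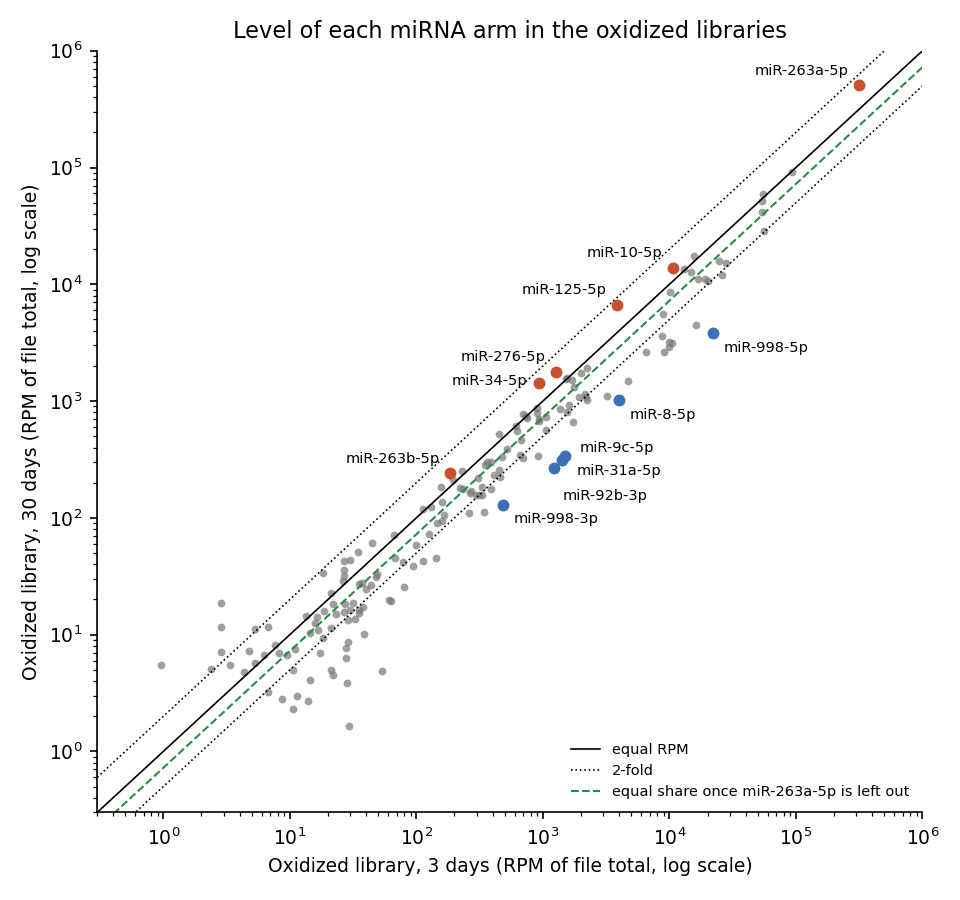
Level of each of 174 arms in the 3-day (x axis) and 30-day (y axis) oxidized library, in RPM of the file total on log scales, with the 6 highest (red) and 6 lowest (blue) age ratios named among arms with a mean of at least 100 RPM. The solid line marks equal RPM, the dotted lines a 2-fold difference and the dashed line an equal share once miR-263a-5p is left out. miR-998-5p lies at 22114 and 3826 RPM, and miR-125-5p at 3819 and 6667 RPM.

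Among single sequences, the highest age ratios were those of short forms and the lowest those of longer forms. The 10 highest age ratios among the 223 sequences with a mean of at least 100 RPM belonged to sequences of 18 to 20 nt in 9 cases, the other being the 25-nt form of miR-263a-5p. The highest was the 19-nt miR-316-5p, at 35.9 RPM at 3 days and 175 RPM at 30 days, a log2 ratio of 2.28 (95% interval 1.95 to 2.64). The 19-nt form of miR-14-3p that starts 1 base late stood at 71.2 and 303 RPM, and the 19-nt miR-981-3p at 81.8 and 316 RPM. miR-252-5p entered with 2 forms, its 20-nt form at 681 and 2302 RPM and its 19-nt form at 48.8 and 154 RPM. The 20-nt form of miR-277-3p, a regulator of branched-chain amino acid breakdown, stood at 296 and 957 RPM. The others were miR-33-5p at 18 nt, miR-9a-5p at 20 nt, miR-184-3p at 18 nt and miR-263a-5p at 25 nt, with log2 ratios from 1.57 to 1.78.

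The 10 lowest ratios belonged to sequences of 21 to 24 nt. The lowest was the 22-nt form of miR-285-5p that starts 1 base late, at 307 RPM and 21.6 RPM, 14.2-fold lower at 30 days. The 23-nt form of the same arm stood at 1692 and 297 RPM. The 24-nt and 23-nt forms of miR-317-3p stood at 6242 and 920 RPM and at 2981 and 638 RPM. The 22-nt miR-998-5p, the most abundant of the 10, stood at 20153 and 3007 RPM, and the 22-nt miR-957-3p at 7308 and 1427 RPM. The others were miR-31a-5p at 22 nt, miR-9c-5p at 21 nt, miR-133-3p at 22 nt and miR-92b-3p at 22 nt, with log2 ratios from -2.57 to -2.22.

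The 12 most abundant sequences include both forms of miR-263a-5p and the 22-nt miR-998-5p, given above. The 21-nt miR-33-5p, encoded within the SREBP gene, stood at 53756 RPM at 3 days and 57165 at 30 days. The 22-nt miR-927-5p stood at 52491 and 49472 RPM, and the 25-nt and 26-nt miR-284-5p at 47507 and 46354 RPM and at 41400 and 40025 RPM. By file totals these 4 stayed near their 3-day levels, and with miR-263a-5p left out they were 1.30-fold to 1.47-fold higher. The 21-nt miR-995-3p stood at 47731 and 22786 RPM, the 22-nt miR-276a-3p at 22813 and 7936 RPM and the 22-nt miR-184-3p at 23102 and 9613 RPM, all at least 2-fold lower by file totals. The 23-nt miR-8-3p stood at 46326 and 32039 RPM, and the 22-nt miR-11-3p at 20054 and 11806 RPM. Of the 3 that were 2-fold lower, miR-276a-3p alone was at least 2-fold lower with miR-263a-5p left out.

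Forms were next sorted by their 3′ end, relative to the most abundant sequence of the arm in the 3-day library without oxidation. That library is outside the comparison of the oxidized libraries. Of the members that began at the same base as that reference form, 145 were the reference form itself. Their median log2 age ratio was -0.90, and 1 was 2-fold higher and 64 were 2-fold lower by file totals, against 4 and 42 with miR-263a-5p left out. The 368 members with a shorter 3′ end had a median of -0.03, with 70 higher and 70 lower by file totals, against 117 and 36 with miR-263a-5p left out. The 104 with a longer 3′ end had a median of -0.78, with 11 higher and 43 lower, against 15 and 19 with miR-263a-5p left out. All 870 members had a median of -0.30. Without oxidation the medians were 0.84 for shorter, -0.11 for reference and 0.03 for longer forms, and 0.48 for all members. The ordering of shorter above reference forms was thus seen in both treatments. Without oxidation, however, the reference form was picked for its abundance in the 3-day library of that very comparison. Its lower ratio was favoured in advance there, so that ordering gives no support to the one with oxidation. Set against the ratio of its own arm, a measure that no scaling changes, 274 of the 368 shorter forms (74.5%) were above their arm. So were 36 of the 145 reference forms (24.8%), 45 of the 104 longer forms (43.3%) and 503 of all 870 members (57.8%). By distance, 76.1% of those 1 nt shorter, 84.4% of those 2 nt shorter and 69.2% of those 3 or more nt shorter were above their arm. With a mean of at least 100 RPM, these counts were 82 of 99 shorter, 15 of 76 reference and 12 of 30 longer forms. Forms of 1 arm share its reads, so a gain by one is a loss by another.

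By length, 73.3% of the members of 16 to 19 nt and 76.1% of those of 20 nt were above their own arm, against 57.8% of all members. The share was 57.1% at 21 nt, 30.5% at 22 nt, 34.1% at 23 nt and 36.7% at 24 nt. Of the 22 members of 25 nt or longer it was 68.2%. The limit of 50 reads is more easily passed through the deeper 30-day library: 17 members of 16 to 19 nt and 4 of 20 nt had 0 reads at 3 days and could differ only upwards, and 64 and 29 had fewer than 10. Among the members with a mean of at least 100 RPM, a limit added after the values were seen, none had fewer than 75 reads at 3 days. There 25 of 31 members of 16 to 19 nt and 31 of 36 of 20 nt were above their arm, against 15 of 62 at 22 nt. Of the 154 members of 22 nt, 5 were 2-fold higher and 65 2-fold lower by file totals. The median log2 ratio was 0.17 at 16 to 19 nt, 0.18 at 20 nt and -0.86 at 22 nt. Without oxidation these medians were 1.22, 0.80 and -0.09. By the last base, the median log2 ratio was -0.61 for C, -0.39 for A, -0.17 for T and -0.03 for G. By the first base it was -0.47 for T, -0.26 for A, -0.21 for C and -0.01 for G.

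The mean read length of an arm does not depend on the scaling of the library. Of the 100 arms with at least 200 reads in each oxidized library, 37 (37%) were shorter by at least 0.25 nt at 30 days and 2 (2%) were longer by as much. The median shift was -0.16 nt, and 87 arms were shorter by any amount. Without oxidation 34 (34%) of the same arms were shorter by at least 0.25 nt, 2 (2%) were longer, and the median shift was -0.14 nt. The 2 sets of shortened arms shared 22 arms, which is 59.5% of those shortened with oxidation and 64.7% of those shortened without. Across the 100 arms the shifts with and without oxidation had a Pearson r of 0.46 and a Spearman rho of 0.47. This describes these 4 libraries, whose arms share library and depth.

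**Figure D3:**
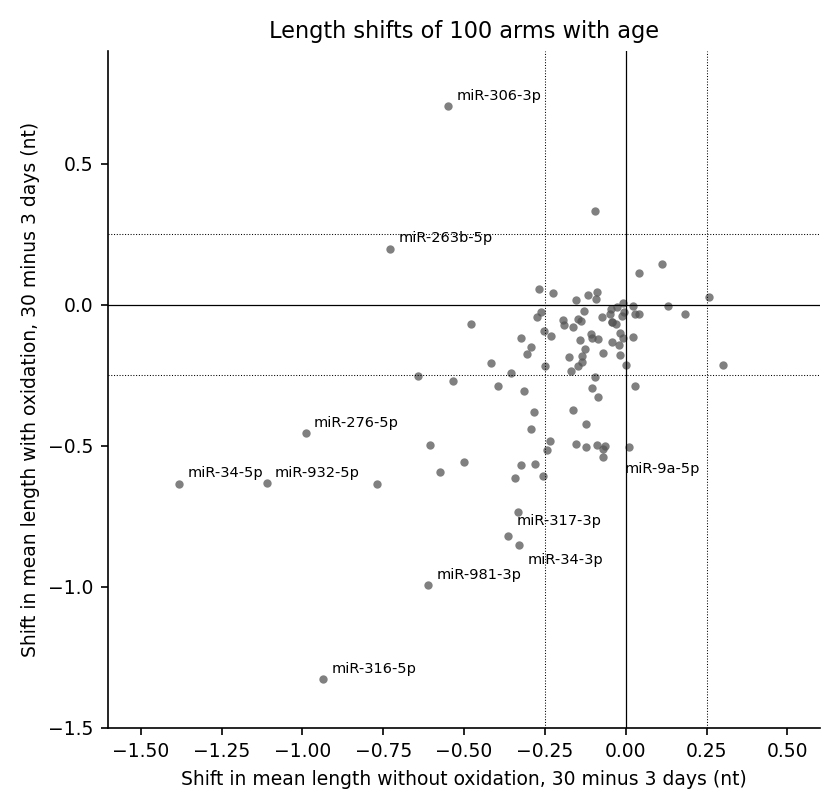
Shift in mean read length of 100 arms, 30 minus 3 days, without oxidation (x axis) and with oxidation (y axis), in nt. Each point is an arm and dotted lines mark 0.25 nt. Most arms lie below 0 on both axes, miR-316-5p is lowest on the y axis at -1.33 nt, and miR-306-3p is highest at 0.70 nt.

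The largest shortening was that of miR-316-5p, whose hairpin lies at chr3L:21668714-21668802 on the minus strand, in an exon of the long non-coding RNA CR45920. Its mean length was 20.8 nt at 3 days and 19.5 nt at 30 days with oxidation, and 21.2 and 20.3 nt without. The 19-nt form, which lacks the last 2 bases of the 21-nt form printed above, took 15.7% of the arm at 3 days (95% interval 12.6 to 19.3) and 69.4% at 30 days (67.7 to 71.0). The 21-nt form took 60.0% and 21.5%, and the 22-nt form 19.3% and 3.05%. Without oxidation the 19-nt share was 9.70% and 42.7%. The arm as a whole stood at 228 and 252 RPM, so its level differed far less than its forms. The 3-day values rest on 477 reads.

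miR-981-3p was next, at 21.2 nt and 20.2 nt, and its 19-nt form took 3.70% of the arm at 3 days and 30.8% at 30 days. Its 22-nt form took 56.7% and 28.3%. The most abundant sequence of the arm was therefore 22 nt long at 3 days and 19 nt at 30 days, while without oxidation it was 22 nt at both ages. miR-34-3p shifted from 21.2 to 20.4 nt and miR-317-3p from 22.5 to 21.7 nt. For miR-317-3p, of the miR-34 cluster, the 24-nt form took 38.5% and 20.7% of the arm and the 21-nt form 31.8% and 40.3%.

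The other 6 of the 10 largest shortenings were those of miR-993-5p, miR-184-3p, miR-34-5p, miR-932-5p, miR-957-3p and miR-2a-2-5p, between -0.73 and -0.61 nt. In the libraries without oxidation all 10 arms were also shorter at 30 days, by 0.26 nt to 1.38 nt. miR-34-5p, miR-932-5p and miR-184-3p shifted further there, by -1.38, -1.11 and -0.77 nt, against -0.63, -0.63 and -0.64 nt with oxidation. The 18-nt miR-34-5p took 39.2% of the oxidized arm at 3 days and 56.2% at 30 days, and 13.1% and 45.6% without oxidation. It was thus already the leading form among oxidized reads at 3 days.

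**Figure D4:**
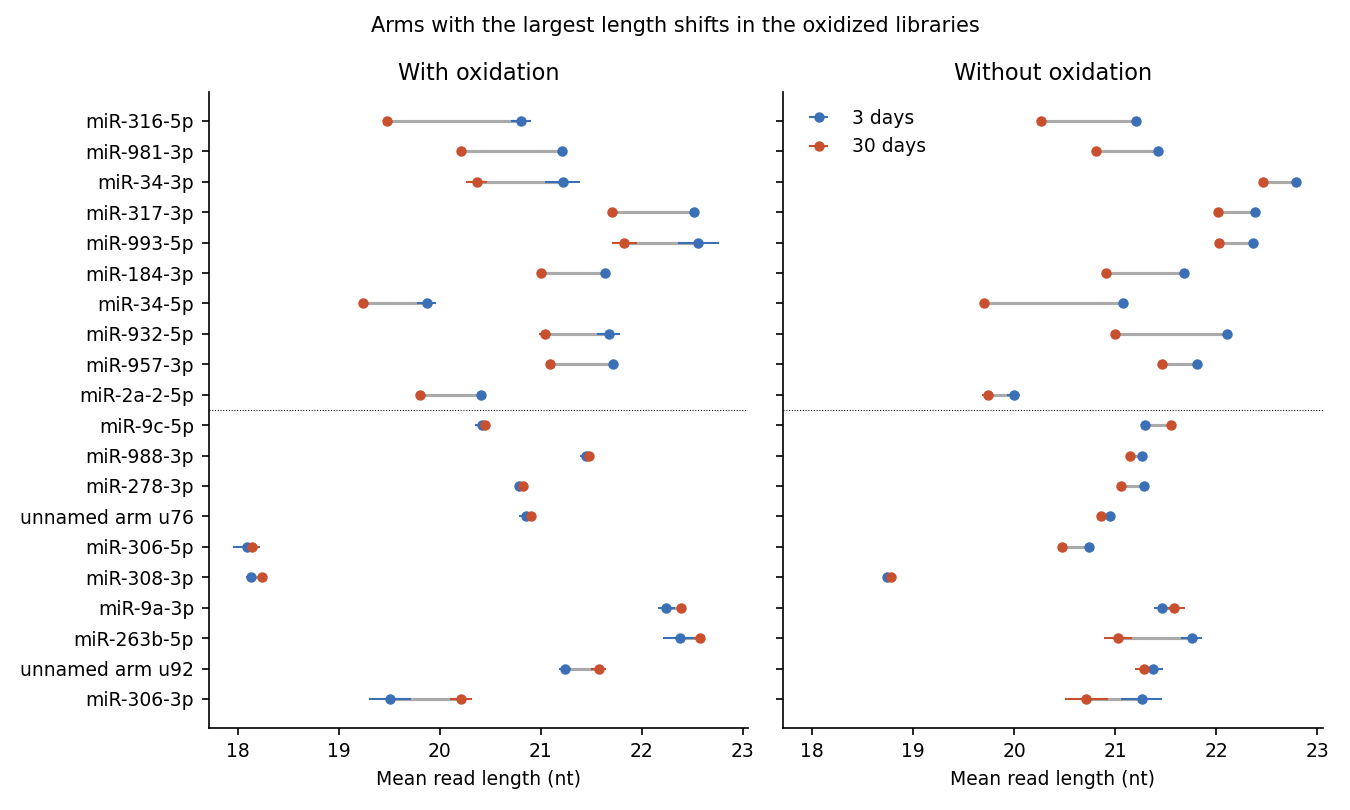
Mean read length in nt at 3 days (blue) and 30 days (red) for the 10 arms with the largest shortening and, below the dotted line, the 10 at the other end of the range, with oxidation (left) and without (right). Bars show normal 95% intervals of the mean over reads, which cover counting error only. miR-316-5p goes from 20.8 to 19.5 nt with oxidation, and miR-306-3p from 19.5 to 20.2 nt.

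Few arms lengthened. miR-306-3p, whose hairpin lies within the grp gene, had a mean of 19.5 nt at 3 days and 20.2 nt at 30 days with oxidation, and of 21.3 and 20.7 nt without. Its 18-nt form took 52.4% of the oxidized arm at 3 days (95% interval 46.7 to 58.1) and 32.0% at 30 days (29.3 to 34.9), and 9.49% and 14.4% without oxidation. The 3-day values rest on 307 reads. An unnamed arm, u92 in the plot of mean lengths, stood at 340 and 113 RPM and shifted by 0.33 nt. miR-263b-5p shifted by 0.20 nt with oxidation and by -0.73 nt without. The other 7 of the 10 at this end shifted by less than 0.15 nt, among them miR-9a-3p, miR-308-3p and miR-306-5p.

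Some arms were shorter at 30 days by over 0.25 nt among the oxidized reads and by less than that without oxidation. miR-9a-5p, which acts in sensory organ formation, had means of 21.8 and 21.2 nt with oxidation, and shifted by -0.07 nt without. Its 20-nt form took 5.87% and 26.0% of the oxidized arm, and 1.88% and 2.53% without oxidation. miR-276b-3p and miR-276a-3p, which share their seed and lie close together on chr3L, moved alike. The 20-nt miR-276b-3p took 4.04% of its oxidized arm at 3 days and 28.1% at 30 days, and the 20-nt miR-276a-3p 5.52% and 26.2%. Without oxidation these shares were 0.857% and 4.26%, and 1.34% and 5.82%. In both arms the 21-nt form between them stayed below 8%, so the larger share at 30 days was mainly at 20 nt. By file totals the 20-nt miR-276a-3p stood at 1436 and 3161 RPM with oxidation while the 22-nt form stood at 22813 and 7936 RPM.

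let-7-5p, known for its role in developmental timing, shifted by -0.51 nt with oxidation and -0.07 nt without. Its 19-nt form took 9.53% and 25.0% of the oxidized arm, and 3.52% and 5.93% without oxidation. The level of the arm was 1521 and 1544 RPM. bantam-3p, a growth-promoting miRNA, was spread over more lengths, with its 23-nt form at 51.4% and 26.4%, its 22-nt form at 34.8% and 43.7% and its 21-nt form at 9.39% and 22.1%. For miR-957-3p the 19-nt form took 1.67% and 14.5% and the 22-nt form 81.2% and 54.0%.

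**Figure D5:**
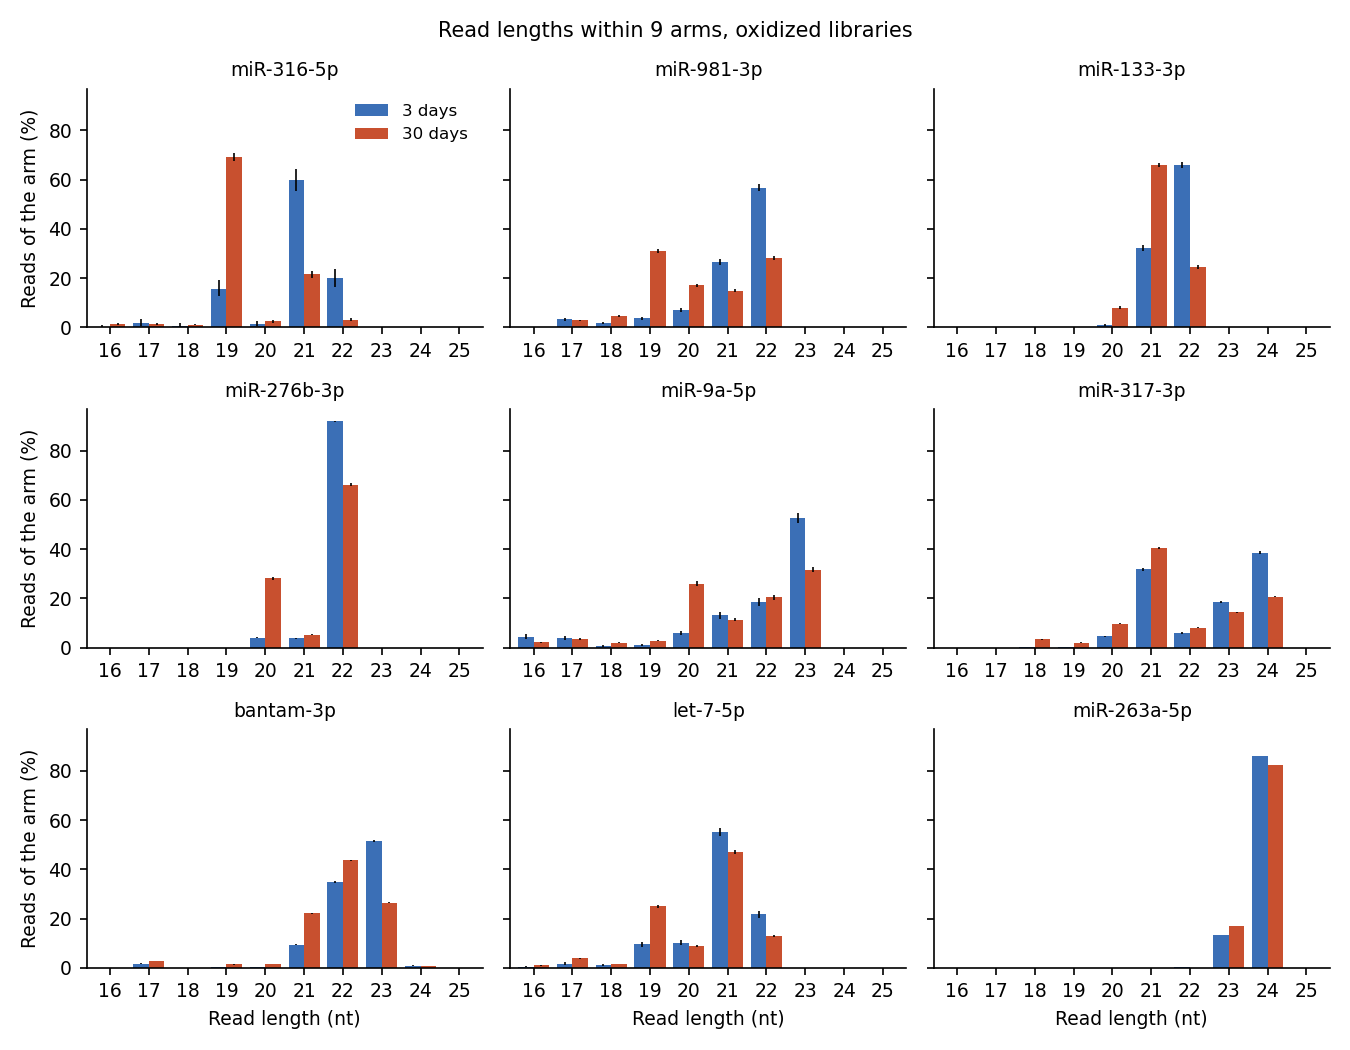
Share of an arm's reads at each read length, in percent, for 9 arms in the oxidized libraries at 3 days (blue) and 30 days (red), with exact 95% binomial intervals that cover counting error only. miR-316-5p goes from 15.7% to 69.4% at 19 nt and miR-276b-3p from 4.04% to 28.1% at 20 nt, while the 24-nt share of miR-263a-5p is 86.2% and 82.6%.

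Shares within arms were also counted sequence by sequence. Of 771 sequences in arms with at least 200 reads in each oxidized library, 40 (5.19%) gained at least 10 percentage points of their arm at 30 days and 52 (6.74%) lost as much. Without oxidation 36 of the 40 also had a larger share at 30 days and 44 of the 52 a smaller one. Past 10 points there were 14 of the 40 and 23 of the 52, a count over sequences picked for their move with oxidation. Moves without oxidation were not counted over all 771 sequences, so these overlaps have no background beside them. In 33 arms 1 sequence gained and another lost 10 points, and in 31 of the 33 the gaining sequence was the shorter. The largest loss was that of the 22-nt miR-133-3p, from 66.0% to 24.5%, while its 21-nt form went from 32.3% to 65.9%. miR-133-3p at 21 nt stood at 707 and 712 RPM, so the shift in share came with a lower level of the 22-nt form, 1447 and 265 RPM, and, by file totals, a like level of the 21-nt form. With miR-263a-5p left out the 21-nt form was 1.39-fold higher. The 21-nt miR-927-3p was at 27.5% and 48.4% of its arm and 85.6 and 75.7 RPM. In miR-927-3p and miR-932-3p the 21-nt share was smaller at 30 days without oxidation.

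The summed share of all forms with a shorter 3′ end was larger at 30 days in 85 of the 100 arms, by at least 10 points in 44, and smaller by 10 points in 0. Without oxidation it was larger in 89 and past 10 points in 28, but there the reference form was picked from the 3-day library itself, which favours such gains. The median gain was 7.40 points with oxidation and 5.35 points without. The most abundant sequence of an arm differed between the ages in 11 arms with oxidation, and in 10 of these it was shorter at 30 days. Without oxidation it differed in 15 arms and was shorter in 13. The 10 arms with oxidation were miR-133-3p, miR-276-5p, miR-305-3p, miR-316-5p, miR-317-3p, miR-927-3p, miR-932-3p, miR-981-3p, miR-981-5p and bantam-3p, and the arm whose leading form was longer was an unnamed one.

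The 5′ end moved less. The share of reads with another start than the reference form differed by at least 10 points in 5 of 100 arms, and the median difference was 0.440 points. In miR-210-3p, a miRNA of photoreceptors, these reads went from 37.2% to 55.2% of the oxidized arm, and from 25.8% to 21.7% without oxidation. In miR-981-5p they went from 48.1% to 29.4%. The others were miR-193-5p, miR-9a-3p and an unnamed arm. Smaller differences were seen in other arms, such as miR-993-5p, from 76.3% to 67.8%. A changed start changes the seed.

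The last values are those of 4 lists drawn up from general knowledge. Of the 12 arms listed for 3′ trimming, 1 was at least 2-fold higher, 3 were at least 2-fold lower and the median log2 age ratio was -0.38. Of all 174 arms, 31% were lower and 3.45% higher; their median was -0.64. Of the 11 with a length value, 4 were shorter by at least 0.25 nt and none was longer, with a median shift of -0.12 nt. Over all 100 arms 37% were shorter by as much, with a median of -0.16 nt, so with oxidation the list lay close to the background. Without oxidation the median shift was -0.26 nt for the list and -0.14 nt for all 100 arms. The 4 arms shorter with oxidation were miR-34-5p, miR-317-3p, miR-277-3p and miR-184-3p. The 3 lower arms were miR-317-3p, miR-274-5p and miR-305-5p, at -1.87, -1.53 and -1.38, and the 1 higher arm was miR-7-5p, at 2.87 and 18.5 RPM, which rests on 6 reads at 3 days. Without miR-263a-5p in the totals, 2 were higher and 2 lower. miR-11-3p, miR-100-5p and miR-305-5p of this list shifted by -0.07, -0.05 and -0.03 nt. miR-274-5p and miR-190-5p each shifted by -0.12 nt. miR-10-5p shifted by -0.17 nt, and its 21-nt form took 23.1% of the arm at 3 days and 36.8% at 30 days.

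Of 9 arms listed for loading into Argonaute2, 0 were 2-fold higher and 1 was 2-fold lower, miR-8-5p, with a median log2 ratio of -0.48, where 3.45% of all arms were higher and 31% lower. Without miR-263a-5p in the totals the median was -0.01 and the counts were the same. miR-33-3p stood at 608 RPM at both ages, miR-276-5p at 1278 and 1778 RPM, miR-278-5p at 10176 and 8660 RPM and miR-8-5p at 3991 and 1022 RPM. bantam-5p stood at 19078 and 11168 RPM and miR-305-3p at 8948 and 5549 RPM. miR-307a-5p and miR-10-3p had log2 ratios of -0.86 and -0.48. Of the 8 with a length value, 2 were shorter by at least 0.25 nt, against 37% of all 100 arms: miR-276-5p shifted by -0.46 nt and miR-277-3p by -0.29 nt. The 19-nt miR-276-5p, a read that both miR-276 hairpins can give, took 40.6% and 59.0% of its arm.

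The 3 arms of the let-7 complex come from 1 transcript on chr2L. By file totals none differed 2-fold: miR-125-5p had a log2 ratio of 0.80, miR-100-5p 0.23 and let-7-5p 0.02. Without miR-263a-5p in the totals miR-125-5p was 2-fold higher, at 1.27. The gain of miR-125-5p was at 21 nt, where it stood at 2741 and 5804 RPM, while its 22-nt form, 1 base longer, stood at 833 and 470 RPM. Of these 3, let-7-5p alone was shorter by at least 0.25 nt. In the miR-34 cluster miR-34-5p was at 0.61, miR-277-3p at -0.23 and miR-317-3p at -1.87. All 3 were shorter at 30 days by at least 0.25 nt, as were 37% of all 100 arms.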

How the data were processed

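The authors deposited 1 table of raw counts per library, a read sequence and its number of reads per row, with no miRNA names; sequences listed up to 5 times, always with equal counts, were counted once. Libraries were made with a TruSeq small RNA kit, per the labels' protocols. Per the submitters' processing notes, CASAVA 1.8.2, Bowtie and dm3 were used, in roles not stated; adapter trimming and filters are not given in the sources used here. Reads were scaled to RPM of the file total. An arm joins sequences that share at least 15 identical aligned bases and together span at most 34 nt, and 53 sequences tied between arms were left out.

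Names are not in the files. They were given from general knowledge of the public catalogue, through bases 2 to 8 of the arm's leading read and a short motif, after the tables were seen, and for some opposite strands by pairing with a named arm. Of 92 named arms with an annotated product, the leading form was within 1 nt of its length in 81; length does not check sequence. Hairpin positions come from the Ensembl BDGP6 annotation by gene name, not from the files. Reads shared by near-identical miRNAs cannot be split.

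With 1 library per group there is no test and no p-value. Shares and, given the sum of both counts, ratios have exact 95% intervals (Clopper-Pearson); reads carry no molecular identifiers, so both cover counting error only. A count of 0 allows up to 3 counts, 1.43 RPM in the 3-day oxidized library and 0.248 RPM in the 30-day one. Ratios, intervals and length shifts were tested on simulated data. Python 3.11.15, scipy 1.17.1 and, for TMM factors only, edgeR 4.0.16 were used.

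Members, lists and markers were chosen with earlier results of these data known. Sequences named are the 10 highest and 10 lowest age ratios with a mean of at least 100 RPM and the 12 most abundant; arms are the 6 highest and 6 lowest, the 10 largest length shifts each way, the arms of the largest share moves, and the lists. Named beside these after their values were seen are miR-210-3p, miR-193-5p, miR-927-3p and miR-932-3p. The 3′ end of a form is set against the most abundant sequence of its arm in the 3-day library without oxidation.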

Additional observations from a re-analysis of the deposited data

Results flagged for a closer look

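In 3 arms the age difference ran in opposite directions with and without oxidation, past the threshold in both. None of these differences between treatments was tested, since each rests on 1 library per group. miR-306-3p was longer at 30 days by 0.70 nt with oxidation and shorter by 0.55 nt without, on 307 reads in the 3-day oxidized library. miR-308-3p had a log2 age ratio of -1.12 with oxidation, from 388 to 178 RPM, and of 1.25 without, from 98.6 to 234 RPM. With miR-263a-5p left out of the totals its ratio with oxidation was -0.66. An unnamed arm of few reads had a log2 age ratio of -2.12 with oxidation, from 58 to 77 reads and 27.7 to 6.36 RPM, and of 1.12 without, where it had 3 and 7 reads.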

How the results depend on the processing

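Results were recomputed with one choice changed at a time. No paired analysis was possible because each group holds 1 library. For sequences (153 higher, 232 lower at least 2-fold), the lower ones were 137 with miR-263a-5p left out of both totals and 146 with TMM scaling. At 200 reads or more together 202 of 508 passed (61 higher, 141 lower), at a mean of 10 RPM or more 250 (62 higher), and with 2-fold asked of the near bound of the exact interval 209 (53 higher). For arms, 15 were higher and 32 lower with miR-263a-5p left out, and 21 and 29 with TMM and likewise with median-of-ratios size factors. At a mean of 100 RPM or more, 26 passed, 0 higher and 26 lower. For length shifts, arms with 1000 reads in each oxidized library gave 21 of 66, 0 longer and 21 shorter. Lengths of 20 to 25 nt alone gave 21 of 96, again 0 longer and 21 shorter, with forms under 20 nt not counted. Longer arms numbered 8 with at least 50 reads in each library and 1 with only sequences of at least 50 reads together. For shares of an arm, 1000 reads in each library left 58 moved by 10 points, 31 of them down.

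Without miR-263a-5p, 22-nt reads were 37.8% and 30.6% at 3 and 30 days, 24-nt reads 1.35% and 0.630%, A-first reads 7.39% and 5.72%, and C-first reads 31.2% and 34.4%. The direction turned for the last 3, since over all reads 24-nt reads were 28.2% and 42.0%, A-first reads 36.7% and 53.3%, and C-first reads 21.3% and 17.1%. With every listed row counted, 22-nt reads were 26.0% and 15.3%, 24-nt reads 28.1% and 41.9%, and C-first reads 21.3% and 17.0%. Among the single values past the threshold in the main setting, 2 changed sign. With lengths of 20 to 25 nt alone, the shifts of miR-276-5p and miR-34-3p were 0.00055 and 0.0032 nt. Sign changes of smaller values were not counted. An example is the log2 age ratio of miR-277-3p, -0.23 by file totals and 0.23 with miR-263a-5p left out. Depth limits the 3-day oxidized library most, where 122 members had fewer than 10 reads.

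An alternative chosen after seeing the data, a mean of at least 100 RPM, left the shorter forms above their arm in 82 of 99 cases and the reference forms in 15 of 76.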
